A study of Mus musculus with 3 samples.

Results

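The comparison concerns 3 wells named bC6FAE[2] and 3 wells named bCFAE on 1 plate of a mouse DRUG-seq2 screen. DRUG-seq2 is a barcoded assay in which RNA is reverse transcribed in the lysate of each well and the wells of a plate are then pooled. The wells were found by the medium name in the header of the count table, which gave these 6 of its 274 columns. The plate is labelled as mouse embryonic fibroblasts of WT genotype, with compounds added to a CFAE+8 medium for 4 days. Whether the wells named for another medium had the same time in culture was not stated. The names of the 2 groups differ by "6" and "[2]". What the letters and bracketed numbers stand for, what each medium held and whether the wells were separate cultures were not stated in the labels. The p-values below therefore measure the spread between wells of 1 plate, which may be technical. Another 24 wells of the same plate shared the fit: 4 of bC6FAE[10], 5 of bC8FAE, 4 each of bCLFAE and bCSFAE, 3 of basal and 4 of MEF.

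As background, letters of this kind are used in published cocktails for chemical reprogramming of fibroblasts. There C stands for a GSK3 inhibitor that switches on Wnt signalling, 6 for an inhibitor of the TGF-beta type I receptor, F for forskolin, A for a retinoic acid receptor agonist and E for an inhibitor of the histone methyltransferase DOT1L. Whether the well names carry that meaning is not known from the labels. TGF-beta signals through SMAD proteins and makes fibroblasts contractile, with smooth muscle actin fibres and a matrix rich in fibronectin. Those contractile genes are read by serum response factor (SRF), which binds a short element called the CArG box, and its coactivators respond to the state of the actin cytoskeleton.

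The bC6FAE[2] wells had totals of 504817, 450621 and 325730 counts, against 664817, 726228 and 429866 counts in the bCFAE wells. Wells named nocell on the same plate held 4280 and 25308 counts. The cells' label was checked against markers. The 9 fibroblast markers, all detected, summed to 5578 to 6267 CPM, the counts scaled by the well total, in bC6FAE[2] wells and 4657 to 5036 CPM in bCFAE wells. Macrophage markers summed to 53.5 to 67.5 CPM in bC6FAE[2] and 48.9 to 52.7 CPM in bCFAE wells, with Ptprc and Adgre1 at 0. Epithelial markers ran over 21.8 to 147 CPM in bC6FAE[2] and 101 to 121 CPM in bCFAE wells, with Epcam and Cdh1 at 0. Endothelial markers reached 11.9 CPM in bC6FAE[2] and 4.51 CPM in bCFAE wells at most, with Pecam1, Tek and Emcn at 0. Skeletal muscle markers, which include Acta1, summed to 36.8 to 39.6 CPM in bC6FAE[2] and 88.4 to 116 CPM in bCFAE wells, with Myog at 0. Neural markers, all 7 detected, were the largest of the other sets, at 430 to 523 CPM in bC6FAE[2] and 477 to 517 CPM in bCFAE wells. Adipocyte markers reached 24.4 CPM in bC6FAE[2] and 12.4 CPM in bCFAE wells at most. Extraembryonic endoderm markers reached 36.8 and 15.0 CPM, and pluripotency markers 2.22 and 0 CPM. The part of these other markers in the results was not tested. In such bulk wells, fewer cells of a type and less RNA per cell cannot be told apart.

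Against bCFAE, the bC6FAE[2] wells had more mRNA for the matrix proteins Lum, Dcn, Fbln1 and the type VI collagens, for the water channel Aqp1, for the imprinted genes H19 and Igf2, for feedback inhibitors of Wnt signalling and for the BMP target Msx1. They had less mRNA for smooth muscle actin Acta2 and other contractile genes, for fibronectin, for the adhesion receptors Cd44 and Itgb1, for the matrix protein Tnc and for the retinol transporter Stra6. A gene was called where edgeR's quasi-likelihood test gave a Benjamini-Hochberg adjusted p under 0.05 over the 6985 genes tested. A list member is called measured below where it passed the filter on low counts that left these genes. The test called 599 genes (8.58%), 351 higher (5.03%) and 248 lower (3.55%) in bC6FAE[2], and 291 of them differed at least 2-fold, 194 higher and 97 lower. The median log2 fold change over all tested genes was -0.0067, and 3449 of them lay above 0.

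In the comparison of bC6FAE[2] against bCFAE with well totals alone as the scale, in place of TMM factors, 266 genes were higher and 348 lower, which moved the share of higher calls to 43.3% from 58.6% and the median of all genes to -0.093. Without the well bC6FAE[2] 1, 368 genes were called.

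**Figure D1:**
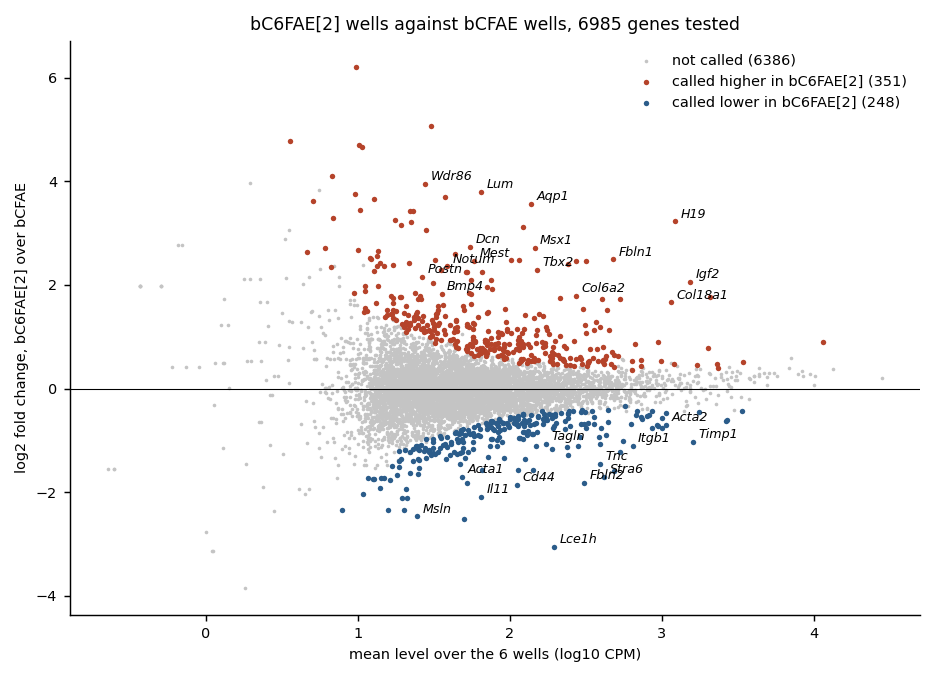
Log2 fold change (y axis, bC6FAE[2] over bCFAE, fitted by edgeR) against the mean level over the 6 wells (x axis, log10 CPM) for the tested genes with at least 1 count in these wells. Each point is 1 gene: 351 called higher in bC6FAE[2] are red, 248 called lower are blue and the rest grey. H19 and Igf2 stand out at high level on the upper side, and Timp1 and Acta2 on the lower side.

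Part of the contractile genes was lower in bC6FAE[2] than in bCFAE. Of 21 measured members of the smooth muscle and SRF list, 0 rose, 8 fell and 13 were not called by edgeR, with a list median of -0.43. By unadjusted p under 0.05, 1 of them was higher, DESeq2 called 0 higher and edgeR called 1 higher without bCFAE 1. The summed level of the list was 5856 to 6573 CPM in bC6FAE[2] wells and 8312 to 8872 CPM in bCFAE wells. Acta2 (chr19:34241090-34255590, mm10), the smooth muscle actin of contractile fibroblasts, was at 741, 770.0 and 835 CPM in bC6FAE[2] wells 1 to 3, against 1474, 1314 and 1259 CPM in bCFAE wells 1 to 3. Every bC6FAE[2] well lay under every bCFAE well, which held for 17.1% of all tested genes, with the opposite order in 10.2%. For the largest rises and falls named below, wells that do not overlap were part of the rule by which they were picked. For Acta2 the log2 fold change was -0.70 ± 0.15 (SE, 3 wells each; edgeR adjusted p = 0.00107). Tagln, an actin-bundling protein also called SM22, was at 93.1, 113 and 117 CPM in bC6FAE[2] and 283, 196 and 237 CPM in bCFAE wells (-1.07 ± 0.18; edgeR adjusted p = 1.87e-05). Acta1, the actin of skeletal muscle, was at 19.8, 22.2 and 24.6 CPM in bC6FAE[2] and 66.2, 92.3 and 67.5 CPM in bCFAE wells (-1.71 ± 0.31; edgeR adjusted p = 7.03e-05). The actin cross-linker Actn1 was at 111, 77.7 and 82.9 CPM in bC6FAE[2] and 174, 168 and 174 CPM in bCFAE wells (-0.82 ± 0.17; edgeR adjusted p = 0.00045). None of these 4 genes overlapped between the groups, and Acta1 had the largest fold among them.

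The other 4 called members depended on single wells. The LIM-domain gene Fhl1 fell by 0.84 ± 0.20 on the log2 scale, Fhl2 fell by 0.67 ± 0.18, the tropomyosin Tpm2 fell by 0.66 ± 0.17 and the calponin Cnn2 fell by 0.43 ± 0.13. Without bC6FAE[2] 1 none of these 4 was called (-0.73, -0.68, -0.61 and -0.42), which left 4 members called. Fhl2 was also lost without bC6FAE[2] 2 (-0.64) or bCFAE 2 (-0.60), and Cnn2 without any 1 of the 6 wells (-0.45 to -0.41). The 13 uncalled members were mixed, with log2 fold changes from -0.58 to 2.15. The highest of these was larger in size than any fall of the list. Actg2, the enteric smooth muscle actin, was at 47.5, 62.1 and 79.8 CPM in bC6FAE[2] and 43.6, 68.8 and 39.5 CPM in bCFAE wells, which overlapped (0.31 ± 0.29). Myl9, a myosin light chain, was at 226, 337 and 301 CPM in bC6FAE[2] and 256, 260.2 and 302 CPM in bCFAE wells, which overlapped too (0.17 ± 0.16). Tropomyosin Tpm1, at -0.29 ± 0.12, and vinculin Vcl, at -0.55 ± 0.19, lay under bCFAE in all 3 wells and were not called here (edgeR adjusted p = 0.162 and 0.0615). Tpm1 was called lower by DESeq2, with well totals alone or with only the 2 groups fitted (-0.38 to -0.29). Without the wells MEF 3 and bC8FAE 4 both were called lower (-0.30 and -0.56). Vcl was also called with well totals alone (-0.63) or a minimum count of 30 (-0.56). SRF mRNA itself (Srf) was at 27.7, 46.6 and 52.2 CPM in bC6FAE[2] and 48.1, 48.2 and 51.2 CPM in bCFAE wells, which overlapped, and its log2 fold change of -0.17 ± 0.26 turned to 0.08 without bC6FAE[2] 1.

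The actin genes are near copies of each other, and how reads that match more than 1 of them were counted was not stated. In GENCODE vM21, exons of Tagln overlap Pcsk7 on the other strand, and whether the counts used strand was not stated either. Among the other genes described here, exons of Actn1, Vcl, Fn1, Tnc, Timp3, Prss23, Tgfb2, Notum, Axin2, Ccnd1, Sfrp2, Bmp4, H19, Igf2, Sqstm1, Mest, Cdkn1c and Nnat also overlap a gene on the other strand.

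The CArG boxes before the starts of the called members are shown because this element is the known site of SRF. The motif searched was CC, 6 bases of A or T, then GG, which reads the same on both strands, in the 250 bases before each RefSeq start (GRCm38.p6). Of 32851 promoters of that length in the table, 1.47% held 1. Of the 8 called members, 7 genes had an entry, all but Tagln, and 4 genes had a match. That count is of genes, while the 1.47% is of promoters, and Fhl1 and Fhl2 had 2 promoters each. The list was put together around SRF, and its uncalled members were not searched. Capitals mark the match, with up to 25 bases on either side, written 5′ to 3′ on the gene's strand and ending before the start.
Cnn2, chr10:79988519-79988578, + strand: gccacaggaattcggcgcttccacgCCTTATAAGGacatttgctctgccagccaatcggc
Fhl1, chrX:56779556-56779615, + strand: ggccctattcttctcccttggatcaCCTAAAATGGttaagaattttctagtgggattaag
Fhl2, upstream start, chr1:43196823-43196882, - strand: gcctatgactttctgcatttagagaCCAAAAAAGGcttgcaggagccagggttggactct
Fhl2, downstream start, chr1:43163962-43164017, - strand: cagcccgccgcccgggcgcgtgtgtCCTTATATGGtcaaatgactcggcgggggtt
Acta1, chr8:123894814-123894873, - strand: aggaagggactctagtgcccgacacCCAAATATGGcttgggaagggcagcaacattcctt
The match began 56 bases before the start in Cnn2, 102 at 1 of the 2 starts of Fhl1, 96 and 31 at the starts of Fhl2 and 73 in Acta1. That Fhl1 start lies inside the span of the gene, and the other Fhl1 start had no match. In Acta2, Tpm2 and Actn1 these letters were not in the window. These matches are a description of the sequence and were not set against the fold changes.

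Of the cytoskeletal and adhesion genes outside the smooth muscle list, part was lower as well. Of 23 measured members, 9 fell and 2 rose, with a median of -0.41. Itgb1, the beta chain of the fibronectin and collagen receptors, was at 376, 428 and 368 CPM in bC6FAE[2] and 945, 940.5 and 796 CPM in bCFAE wells (-1.11 ± 0.14; edgeR adjusted p = 9.82e-09). Vimentin (Vim), the intermediate filament of fibroblasts, was at 2147, 2093 and 1784 CPM in bC6FAE[2] and 3424, 3331 and 3078 CPM in bCFAE wells (-0.62 ± 0.14; edgeR adjusted p = 0.000992). Neither gene overlapped between the groups. Cytoplasmic gamma-actin Actg1 fell by 0.79 ± 0.16, the tubulin Tubb6 fell by 0.71 ± 0.12 and the LIM protein Pdlim7 fell by 0.65 ± 0.13, while Itgb5, a vitronectin receptor chain, rose by 1.19 ± 0.20. The number of falls was 5 without bC6FAE[2] 2 or bCFAE 1. Cd44, the hyaluronan receptor, was at 47.5, 37.7 and 55.3 CPM in bC6FAE[2] and 194, 173 and 163 CPM in bCFAE wells (-1.85 ± 0.20; edgeR adjusted p = 8.87e-11). Axl, a receptor kinase on the list of YAP targets, fell by 1.28 ± 0.15 and was the only 1 of 8 measured members called.

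**Figure D2:**
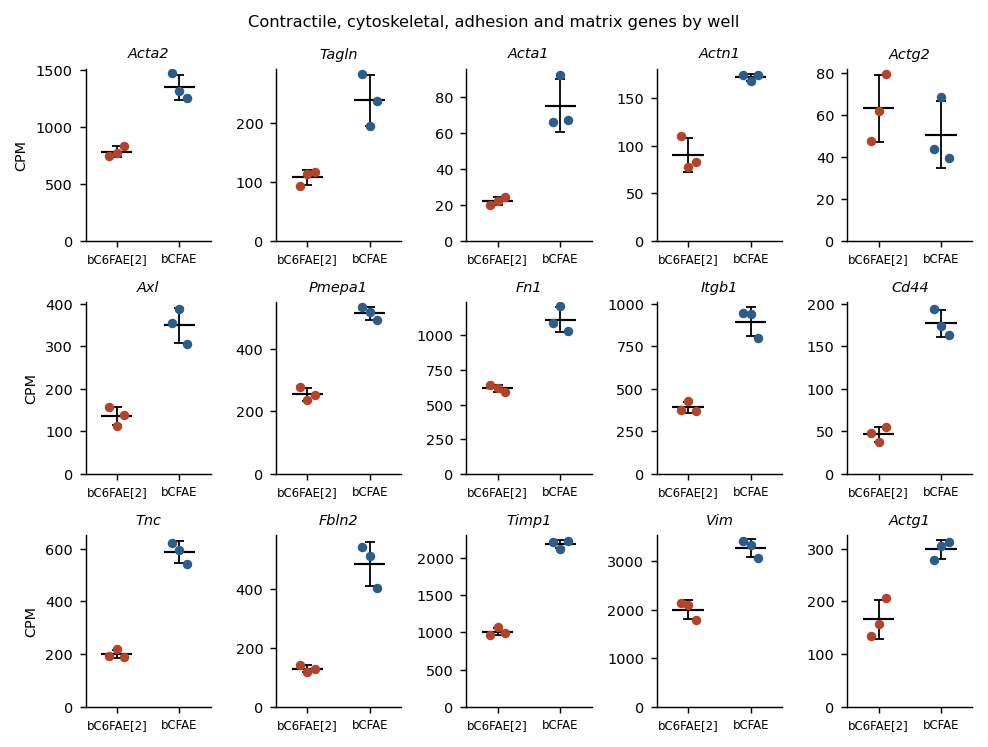
CPM (y axis, from 0) in each bC6FAE[2] well (red, left) and each bCFAE well (blue, right) for 15 genes of contraction, TGF-beta response, adhesion and matrix, with the receptor kinase Axl among them. Points are wells and black bars are the mean and SD of 3 wells. The wells of Actg2 overlap between the groups, and in the other panels bC6FAE[2] is lower, an order that 17.1% of all tested genes had and that the choice of some of these genes required.

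TGF-beta response genes moved in both directions. Of 25 measured members, 5 rose, 3 fell and 17 were not called, with a median of -0.28. Pmepa1, a feedback inhibitor of SMAD signalling, was at 277, 235 and 252 CPM in bC6FAE[2] and 534, 518 and 493 CPM in bCFAE wells (-0.93 ± 0.13; edgeR adjusted p = 2.85e-07). Fibronectin (Fn1) was at 642, 624 and 593 CPM in bC6FAE[2] and 1092, 1210.4 and 1033 CPM in bCFAE wells (-0.76 ± 0.15; edgeR adjusted p = 0.000148). Both genes were lower in each bC6FAE[2] well than in any bCFAE well.

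Other members of the list rose. Periostin (Postn), a matrix protein of mesenchyme, was at 31.7, 46.6 and 52.2 CPM in bC6FAE[2] and 13.5, 8.26 and 6.98 CPM in bCFAE wells (2.16 ± 0.37; edgeR adjusted p = 1.76e-05). Tgfbi, a secreted protein that binds collagen, was at 222, 235 and 215 CPM in bC6FAE[2] and 73.7, 92.3 and 100.0 CPM in bCFAE wells (1.44 ± 0.19; edgeR adjusted p = 5.96e-08). The transcription factor Snai1 rose by 0.79 ± 0.18. In all 3 the groups were apart, so Fn1 and Postn, both on the list, moved in opposite directions. The last 2 rises, Snai2 (1.32 ± 0.38) and the ligand Tgfb2 (1.66 ± 0.53), were both lost without bC6FAE[2] 1 (1.34 and 1.48), bC6FAE[2] 2 (1.21 and 1.60) or bCFAE 2 (1.05 and 1.34), which left 3 rises, and Tgfb2 also without bCFAE 1 (1.76). Among the uncalled members, the receptors Tgfbr1 and Tgfbr2 were at -0.60 ± 0.44 and -0.12 ± 0.19, and the inhibitory Smad7 at -0.84 ± 0.39 (edgeR adjusted p = 0.209, and a log2 fold change of -1.43 without bC6FAE[2] 1).

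Of 20 measured fibroblast and mesenchymal genes, 10 rose and 1 fell, with a median of 1.02. Lumican (Lum), a small proteoglycan that spaces collagen fibrils, was at 174, 133 and 52.2 CPM in bC6FAE[2] and 9.03, 6.88 and 13.96 CPM in bCFAE wells (3.80 ± 0.43; edgeR adjusted p = 1.07e-09). Decorin (Dcn), another of these proteoglycans and a binder of TGF-beta, was at 83.2, 107 and 95.2 CPM in bC6FAE[2] and 12.03, 15.1 and 18.6 CPM in bCFAE wells (2.73 ± 0.41; edgeR adjusted p = 1.08e-06). Thy1, a surface protein of fibroblasts, was at 2908, 3378 and 3134 CPM in bC6FAE[2] and 1038, 789 and 1103 CPM in bCFAE wells (1.77 ± 0.17; edgeR adjusted p = 7.74e-12). Lum varied most relative to its mean among the bC6FAE[2] wells, yet its lowest well lay above every bCFAE well, as did those of Dcn and Thy1. The calcium-binding protein S100a4 rose by 1.51 ± 0.20 and the mesenchymal factor Twist1 by 1.35 ± 0.20, and Vim was the 1 member that fell.

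The 3 type VI collagen chains of the list rose: Col6a1 at 869.6, 799 and 731 CPM in bC6FAE[2] and 289, 227 and 258 CPM in bCFAE wells (1.72 ± 0.14; edgeR adjusted p = 1.81e-14), Col6a2 by 1.80 ± 0.16 and Col6a3 by 1.05 ± 0.20. Col18a1, the basement membrane collagen that carries endostatin, was at 1902, 1655 and 1609 CPM in bC6FAE[2] and 516, 585 and 633 CPM in bCFAE wells (1.67 ± 0.13; edgeR adjusted p = 1.82e-15). For both genes the bC6FAE[2] wells were all above the bCFAE wells. Frem1, a basement membrane protein, had 78 counts over the 3 bC6FAE[2] wells and 3 over the 3 bCFAE wells, a ratio of 37.0 per total (95% interval 12.2 to 183, counting error only). Its fitted fold moved 1.51 times without bCFAE 1, which held 0 of those counts, and 1.59 times without bCFAE 2. Over 19 measured collagens of this kind and basement membrane genes, 9 rose and 1 fell (median 0.49). Of 6 fibrillar collagens, 2 rose, Col3a1 by 1.08 ± 0.26 and Col5a3 by 1.65 ± 0.39.

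Glycoproteins of the matrix were split. Of 26 measured proteoglycans, microfibril and cross-linking genes, 6 rose and 4 fell (median -0.0017). The fibulins went opposite ways: Fbln1 was at 834, 806 and 768 CPM in bC6FAE[2] and 143, 145 and 169.8 CPM in bCFAE wells (2.50 ± 0.17; edgeR adjusted p = 9.55e-18), and Fbln2 was at 143, 119.8 and 129 CPM in bC6FAE[2] and 545, 514 and 402 CPM in bCFAE wells (-1.82 ± 0.17; edgeR adjusted p = 7.15e-13). Tenascin C (Tnc), a matrix protein of wounds and embryos, was at 194, 219.7 and 190.3 CPM in bC6FAE[2] and 623, 596 and 539.7 CPM in bCFAE wells (-1.45 ± 0.17; edgeR adjusted p = 2.78e-09). The groups were apart for all 3 genes.

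Among 22 measured matrix proteases and inhibitors, 7 rose and 4 fell (median 0.39). The gelatinase Mmp2 was at 636, 604 and 602 CPM in bC6FAE[2] and 171, 197 and 223 CPM in bCFAE wells (1.74 ± 0.15; edgeR adjusted p = 6.05e-14). Its family's inhibitor Timp1 was at 973, 1067 and 995 CPM in bC6FAE[2] and 2207, 2125 and 2229 CPM in bCFAE wells (-1.03 ± 0.16; edgeR adjusted p = 1.74e-06). Each gene had groups that did not overlap, the protease higher and the inhibitor lower. Timp3 fell by 0.88 ± 0.16 and the serine protease Prss23 fell by 1.82 ± 0.30, and the thrombin inhibitor Serpine2 rose by 1.28 ± 0.20. The number of rises was 4 without bC6FAE[2] 1.

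Feedback genes of Wnt signalling were higher. Of 18 measured Wnt targets, 11 rose and 1 fell, with a median of 0.96. Notum, a secreted enzyme that inactivates Wnt proteins, was at 65.4, 68.8 and 58.3 CPM in bC6FAE[2] and 12.03, 15.1 and 11.6 CPM in bCFAE wells (2.36 ± 0.35; edgeR adjusted p = 8.51e-07). Nkd1, an intracellular inhibitor of the pathway, was at 180.3, 209 and 196 CPM in bC6FAE[2] and 78.2, 112 and 114 CPM in bCFAE wells (1.04 ± 0.19; edgeR adjusted p = 5.59e-05). In each gene all bC6FAE[2] wells were above all bCFAE wells. The transcription factor Sp5 rose by 1.45 ± 0.35, the secreted Dkk3 by 1.12 ± 0.24 and the receptor Tnfrsf19 by 0.87 ± 0.20. The secreted inhibitor Wif1 rose by 2.65 ± 0.62 but was not called without bC6FAE[2] 1 (2.33), and Sfrp1 by 1.46 ± 0.36 but not without bCFAE 2 (1.02). Nkd2 (1.08 ± 0.34) was lost without bC6FAE[2] 3 (0.55), bCFAE 2 (0.79) or bCFAE 3 (1.09), and Sfrp2 (1.23 ± 0.35) without bC6FAE[2] 2 (1.23), bC6FAE[2] 3 (1.18) or bCFAE 1 (1.13). Ror2 (0.76 ± 0.24) was lost without any 1 well other than bCFAE 3 (0.64 to 0.81). Axin2, the most widely used readout of beta-catenin, was at 13.9, 22.2 and 15.4 CPM in bC6FAE[2] and 9.03, 19.3 and 27.9 CPM in bCFAE wells, which overlapped (0.045 ± 0.42; edgeR adjusted p = 0.98). Its sign turned with the scaling by totals (-0.04) and without bC6FAE[2] 2 (-0.18) or bCFAE 1 (-0.32). Cyclin D1 (Ccnd1), at 1418, 1465 and 1145 CPM in bC6FAE[2] and 1418, 1314 and 1266 CPM in bCFAE wells, was not called either (0.10 ± 0.13). The 1 lower member, Tcf7l2, rested on 3 counts in bC6FAE[2] and 25 in bCFAE, a ratio of 0.171 (95% interval 0.033 to 0.559), and was lost without any 1 well other than bCFAE 3.

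BMP genes had 5 rises and 0 falls in edgeR's test among 13 measured members, with a median of 0.55. By unadjusted p under 0.05, 1 was lower, and DESeq2 called 0 lower. The ligand Bmp4 was at 55.5, 75.5 and 30.7 CPM in bC6FAE[2] and 16.5, 12.4 and 23.3 CPM in bCFAE wells (1.83 ± 0.34; edgeR adjusted p = 9.58e-05). Msx1, a homeobox target, was at 287, 222 and 243 CPM in bC6FAE[2] and 33.1, 46.8 and 41.9 CPM in bCFAE wells (2.71 ± 0.24; edgeR adjusted p = 3.18e-13). Id3, an inhibitor of helix-loop-helix factors, was at 2355, 2448 and 2613 CPM in bC6FAE[2] and 1513, 1508 and 1542 CPM in bCFAE wells (0.79 ± 0.13; edgeR adjusted p = 1.27e-05). The groups did not overlap in these 3 genes. Id1 rose by 0.55 ± 0.13 and Bmp7 by 0.95 ± 0.26. Without bC6FAE[2] 1 both were lost (0.44 and 0.85), which left 3 rises, and Bmp7 was lost without bC6FAE[2] 2 (0.88) or bCFAE 2 (0.92) too. Id2, at 0.41 ± 0.16, and the antagonist Grem1, at -0.28 ± 0.31, were not called (edgeR adjusted p = 0.111 and 0.699). Id2 was called higher with only the 2 groups fitted (0.42) or without the wells MEF 3 and bC8FAE 4 (0.41). The homeobox and patterning list, which also holds Msx1, had 3 rises among 18 measured members (median 0.40): the T-box factor Tbx2, at 258, 251 and 236 CPM in bC6FAE[2] and 49.6, 66.1 and 41.9 CPM in bCFAE wells (2.29 ± 0.20), and Prrx2 (0.91 ± 0.16) were the others.

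**Figure D3:**
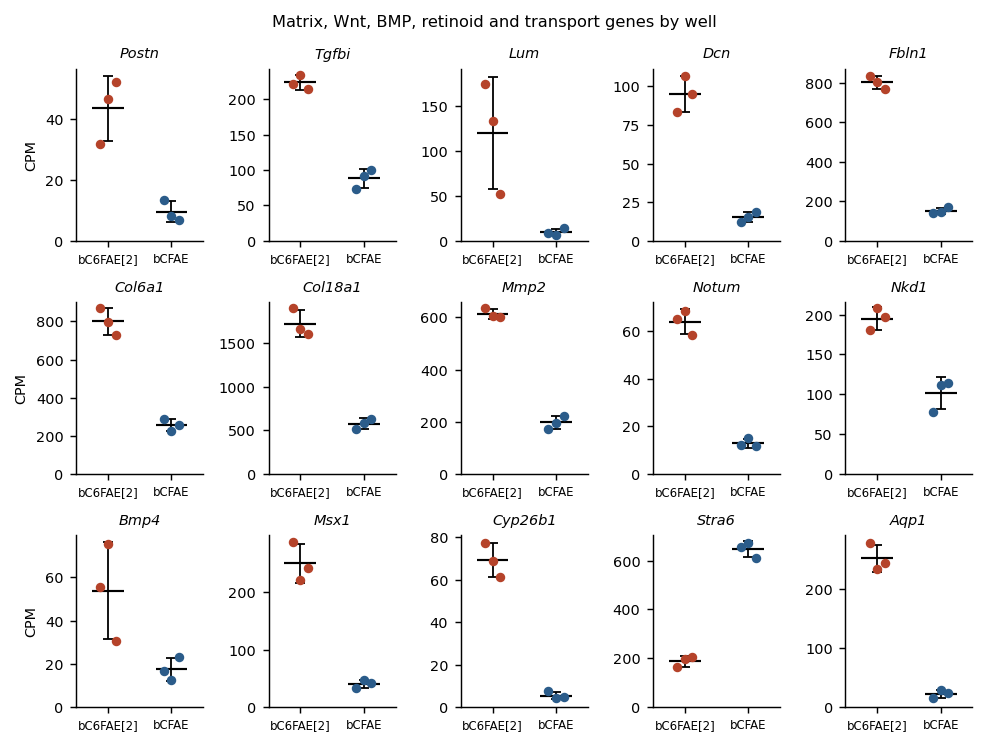
CPM (y axis, from 0) in each bC6FAE[2] well (red, left) and each bCFAE well (blue, right) for 15 matrix, Wnt, BMP, retinoid and transport genes. Points are wells and black bars are the mean and SD of 3 wells. Stra6 is lower in bC6FAE[2] and the other genes shown are higher without overlap, an order that 10.2% of all tested genes had and that the choice of some of these genes required.

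Retinoid genes moved in both directions. Of 12 measured members, 5 rose and 1 fell, with a median of 0.66. Cyp26b1, which degrades retinoic acid, was at 77.3, 68.8 and 61.4 CPM in bC6FAE[2] and 7.52, 4.13 and 4.65 CPM in bCFAE wells (3.69 ± 0.42; edgeR adjusted p = 1.2e-09). Stra6, the membrane transporter of retinol, was at 162, 195 and 206 CPM in bC6FAE[2] and 654, 673 and 609 CPM in bCFAE wells (-1.71 ± 0.14; edgeR adjusted p = 9.66e-15). The degrading enzyme and the transporter thus moved in opposite directions, each without overlap. Crabp1, the cellular retinoic acid binding protein, was at 15225, 14959 and 13935 CPM in bC6FAE[2] and 7697, 7535 and 9882 CPM in bCFAE wells (0.90 ± 0.17; edgeR adjusted p = 0.000172). The retinal reductase Dhrs3 rose by 0.76 ± 0.15. Aldh1a2, which makes retinoic acid, rose by 2.56 ± 0.68, but was not called without bC6FAE[2] 2 (1.95) or bCFAE 1 (1.93), and was at 3.51 without bCFAE 2.

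Among the other large rises was Aqp1 (chr6:55336432-55348555, mm10), a water channel, at 279, 235 and 246 CPM in bC6FAE[2] and 15.04, 28.9 and 23.3 CPM in bCFAE wells (3.57 ± 0.26; edgeR adjusted p = 7.44e-17). H19 (chr7:142575529-142578143), a long noncoding RNA made from the maternal allele, was at 1896, 2348 and 2327 CPM in bC6FAE[2] and 247, 256 and 239.6 CPM in bCFAE wells (3.23 ± 0.23; edgeR adjusted p = 3.54e-17). Its neighbour Igf2 (chr7:142650766-142666816), an insulin-like growth factor made from the paternal allele, was at 1923, 2940.4 and 2441 CPM in bC6FAE[2] and 660.3, 729.8 and 463 CPM in bCFAE wells (2.05 ± 0.21; edgeR adjusted p = 4.87e-11). Among the bC6FAE[2] wells, well 1 was the highest for Aqp1 and the lowest for H19 and Igf2. Nrgn, a calmodulin-binding protein of neurons, rose by 2.46 ± 0.16, and Wdr86 by 3.95 ± 0.54. Nts, the neurotensin precursor, had 25 counts in bC6FAE[2] and 0 in bCFAE wells and was at least 11.8-fold higher against a floor of 3 counts over the group. Among the largest falls were Il11, a cytokine of the interleukin-6 family, at 17.8, 31.1 and 21.5 CPM in bC6FAE[2] and 120.3, 106 and 90.7 CPM in bCFAE wells (-2.09 ± 0.27; edgeR adjusted p = 3.38e-08), and mesothelin (Msln), at 3.96, 8.88 and 9.21 CPM in bC6FAE[2] and 30.1, 56.5 and 39.5 CPM in bCFAE wells (-2.47 ± 0.49; edgeR adjusted p = 0.00021). Of 18 measured insulin-like and other growth factor genes, 4 rose and 3 fell (median -0.28), with the angiogenic Vegfa (-1.11 ± 0.22) among the falls. In GENCODE vM21 an exon of H19 holds Mir675, and Igf2 shares exons with Igf2os on the other strand.

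Many other gene groups had few or no calls, beside 8.58% called over all tested genes. At that share lists of this size hold few or no calls, so such counts are not read as a result about the group. None was called by edgeR among 17 p53 targets, 12 tRNA synthetases, 19 genes of the unfolded protein response, 6 mitochondrially encoded genes, 6 cAMP response genes or the 3 macrophage, 2 endothelial, 2 adipocyte and 1 pluripotency genes measured. By unadjusted p under 0.05 there were 4 of the p53 targets, 4 of the mitochondrial genes, 2 of the cAMP genes, 1 each of the synthetases, the unfolded protein response and pluripotency, and 0 of the others, and DESeq2 called 0 in all of them. Other fits did call some, all higher in bC6FAE[2]: with only the 2 groups fitted 4 mitochondrial genes, 3 p53 targets, 1 gene of the unfolded protein response and 1 of the cAMP response, and without the wells MEF 3 and bC8FAE 4 the counts were 4, 2, 1 and 1. The mitochondrial list had 1 call without bCFAE 2, with a replicate block or with no filter on low counts, and the cAMP list 1 without bCFAE 2 or with the block. One call each was made among 24 genes of DNA replication, 19 of the G2/M phase, 21 of cholesterol synthesis, 17 of fatty acid metabolism, 11 ERK targets, 9 complement and 2 epithelial genes, and 2 each among 14 heat shock and 3 extraembryonic endoderm genes. Of 14 amino acid response genes, 2 rose and 1 fell. Without bC6FAE[2] 1 the counts of all the lists in the preceding 2 sentences were 0, other than that of fatty acid metabolism, whose rise was lost without any 1 well other than bC6FAE[2] 1. From each of these lists at least 1 other single well also removed a call when left out. By well totals alone 3 genes of the G2/M phase were lower, and the amino acid response list had 1 rise and 2 falls. Oxidative stress genes had 2 rises and 4 falls among 17, with the peroxiredoxin Prdx1 at -0.69 ± 0.13 and the glutathione peroxidase Gpx3 at 0.91 ± 0.18, and the falls numbered 1 without bC6FAE[2] 3 or bCFAE 3 and 2 without bC6FAE[2] 2, bCFAE 1 or bCFAE 2. Lysosomal genes had 2 rises and 3 falls among 21, and the autophagy receptor Sqstm1 (-0.69 ± 0.13) was a fall that kept its call whichever well was left out. The rises of this list numbered 1 without bC6FAE[2] 1 or 2 and 0 without bCFAE 1, and the falls 1 without bC6FAE[2] 2 or 3 or bCFAE 2. Glycolysis and hypoxia genes had 1 rise and 2 falls among 21. The rise was lost without any 1 well other than bC6FAE[2] 2. Interferon-induced genes had 3 rises among 9, with Ifitm3 at 0.71 ± 0.14, and inflammatory genes 2 among 16, the chemokine Ccl7 (0.82 ± 0.21) and Nfkbia (1.16 ± 0.31). Neural genes had 3 rises among 9, neuropeptides 3 among 6, aquaporins and ion transport 2 among 4 and skeletal muscle genes 1 fall, Acta1, among 4. Aqp5, the other aquaporin that rose, was lost without bC6FAE[2] 1 (1.41) or bCFAE 2 (1.25). In the neural list Tubb3 was lost with DESeq2, well totals alone or no filter, and without any 1 well other than bC6FAE[2] 2. The neuropeptide Cck was lost with well totals alone and without bC6FAE[2] 1 or 3 or bCFAE 1 or 2. The interferon-induced Ifitm2 was lost with well totals alone or no filter, and without any 1 well other than bCFAE 3.

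**Figure D4:**
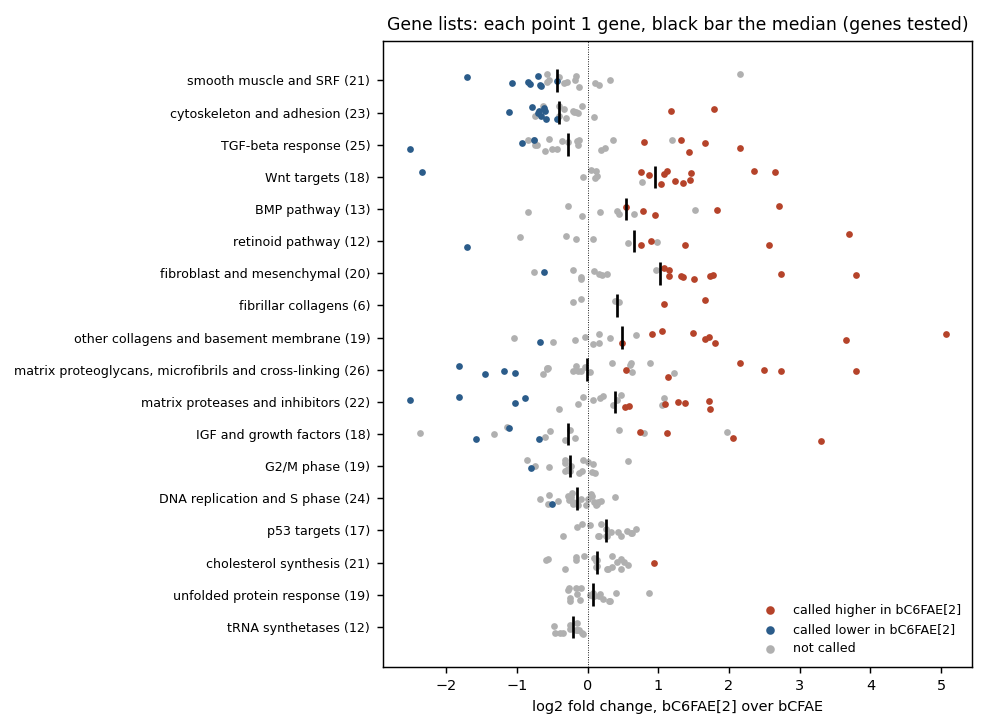
Log2 fold change (x axis, bC6FAE[2] over bCFAE) of each measured gene of 18 lists (rows, with the number of genes tested). Red points were called higher in bC6FAE[2], blue ones lower and grey ones not called, and the black bar is the list's median. The smooth muscle and cytoskeletal lists lie mostly left of 0, the Wnt, BMP, retinoid and fibroblast lists mostly right, and the TGF-beta and matrix proteoglycan lists on both sides.

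The bC6FAE[10] wells, whose name differs from bC6FAE[2] by the bracketed number, were compared with bC6FAE[2] to ask what differs between these media. The test called 29 of 6985 genes (0.415%), 19 higher and 10 lower in bC6FAE[10], and 544 had an unadjusted p under 0.05. Of the contractile genes, 5 were higher in bC6FAE[10]. Acta2 had a lowest, median and highest level of 1423, 1603 and 1658 CPM in the 4 bC6FAE[10] wells, against 741, 770.0 and 835 CPM in bC6FAE[2] wells (0.97 ± 0.15; edgeR adjusted p = 4.64e-05), and it kept its call whichever well was left out. Acta1 (1.40 ± 0.32), Myl9 (0.69 ± 0.15) and Fhl1 (0.92 ± 0.20) were each lost without bC6FAE[2] 1 (1.32, 0.53 and 0.80). Acta1 was also lost without bC6FAE[2] 2 (1.41) or bC6FAE[10] 1 (1.23), Myl9 without bC6FAE[10] 4 (0.57) and Fhl1 without bC6FAE[2] 2 (0.85) or bC6FAE[10] 3 (0.85). The other call was Csrp1, a LIM protein of smooth muscle (0.79 ± 0.15). It was lost without bC6FAE[2] 1 (0.69). Msx1 was at 403, 474 and 506 CPM in bC6FAE[10], against 287, 222 and 243 CPM in bC6FAE[2] wells (0.84 ± 0.17; edgeR adjusted p = 0.00535), and was lost without bC6FAE[2] 2 (0.75). Tagln, H19, Lum and Aqp1 were not called between the 2 media (0.28 ± 0.19, 0.25 ± 0.19, -0.57 ± 0.27 and 0.34 ± 0.16). Without bC6FAE[2] 1 or 2 the test called 8 genes, and without bC6FAE[10] 3 or 4 it called 18. Lowest, median and highest levels in bCFAE wells are set beside these as a description. Acta2 was at 1259, 1314 and 1474 CPM there, not above its levels in bC6FAE[10]. Fhl1 was at 142, 164 and 190 CPM in bC6FAE[10] and 142, 151 and 188 CPM in bCFAE. Tagln was at 124, 132 and 144 CPM in bC6FAE[10] and 196, 237 and 283 CPM in bCFAE.

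The bC8FAE wells were compared with bC6FAE[2] for the same reason, and the test called 128 genes (1.83%), 37 higher and 91 lower in bC8FAE. By well totals alone the split was 48 higher and 72 lower. Part of the contractile genes was lower in bC8FAE than in bC6FAE[2]. Acta2 had a lowest, median and highest level of 94.9, 115 and 176 CPM in the 5 bC8FAE wells, against 741, 770.0 and 835 CPM in bC6FAE[2] wells (-2.73 ± 0.17; edgeR adjusted p = 2.43e-19). Of the smooth muscle list, 9 of 21 members were lower and 0 higher in edgeR's test, beside 91 of 6985 lower over all tested genes. Tagln was at -1.82 ± 0.25, Myl9 at -2.25 ± 0.19 and Fhl1 at -2.39 ± 0.30. Postn was at 3.95, 7.59 and 12.8 CPM in bC8FAE, against 31.7, 46.6 and 52.2 CPM in bC6FAE[2] wells (-2.60 ± 0.39; edgeR adjusted p = 5.35e-06). Igf2 was at 433, 806 and 1299 CPM in bC8FAE, against 1923, 2940.4 and 2441 CPM in bC6FAE[2] wells (-1.78 ± 0.18; edgeR adjusted p = 2.81e-10). The bC8FAE wells were lower than every bC6FAE[2] well in all 3 genes, and the share of all tested genes with that order was not counted. H19 (-1.32 ± 0.18) and Lum (-1.90 ± 0.32) were lower too, while Aqp1, Acta1 and Notum were not called (-0.019 ± 0.17, 0.017 ± 0.39 and 0.36 ± 0.24). Without bC6FAE[2] 1, 2 or 3 the number of calls was 60, 82 or 69.

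Both of these comparisons share the 3 bC6FAE[2] wells with the one against bCFAE and are not independent of it. Set beside them, the MEF wells had Acta2 at 1600.0, 2118 and 2621 CPM (lowest, median and highest of 4), Postn at 64.6, 72.7 and 79.3 CPM, H19 at 4461, 4847 and 5987 CPM, Stra6 at 2.84, 5.82 and 21.6 CPM and Msx1 at 0, 11.6 and 17.9 CPM. For Acta2, Postn and H19 the lowest MEF well was above every bC6FAE[2] well, and for Stra6 and Msx1 the highest MEF well was below every bC6FAE[2] well. The share of all tested genes with such an order against MEF wells was not counted. These levels are a description, with no test, and the order is not read as particular to these genes.

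**Figure D5:**
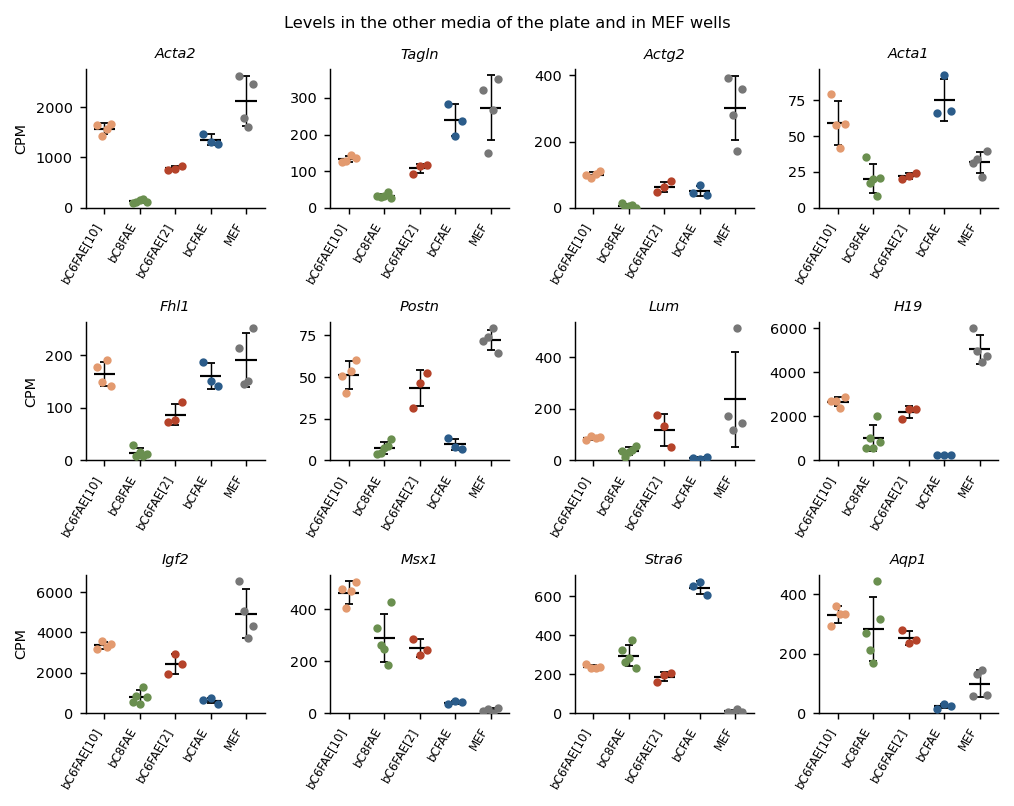
CPM (y axis, from 0) of 12 genes in the wells of bC6FAE[10] (4), bC8FAE (5), bC6FAE[2] (3), bCFAE (3) and MEF (4). Points are wells and black bars are the mean and SD. Acta2, Actg2, Fhl1, Postn and Igf2 are lower in bC8FAE than in bC6FAE[2], whereas Aqp1 and Msx1 are higher in all 3 media with 6 or 8 in the name than in bCFAE.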

How the data were processed

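The authors deposited a table of counts per gene, 20471 genes by 274 columns, of which 32 were used here and 242 were not. Per the submitters' processing notes, the reads were aligned with STAR to mm10. No label names the counting tool or its annotation, or says how strand and molecular identifiers were used. Wells were grouped by the medium name in the column header, and 26 gene names had been turned into dates. Genes were filtered with filterByExpr (minimum count 10), scaled by TMM and tested in 1 fit of 30 wells with edgeR's quasi-likelihood test, with Benjamini-Hochberg adjustment over 6985 genes (edgeR 4.0.16, R 4.3.3). Log2 fold changes are the tested medium over the one it is set against, with SE from the test statistic. CPM were computed from the deposited counts and the well total. Intervals and floors are at 95% and 3 counts and cover counting error only.

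Named genes were the 15 largest rises and 15 largest falls of called genes with at least 10 CPM and groups that did not overlap, up to 6 called members of each list, and the measured members of the smooth muscle, TGF-beta, Wnt and BMP lists. Members and lists were chosen with earlier results of these data known. The text gives values for part of them, and some called genes are not reported here. Alternatives were DESeq2 1.42.0, RLE scaling, well totals alone, no filter, a minimum count of 30, only the 2 groups fitted, 2 low wells left out, a replicate block and 1 well left out in turn. Positions are from GENCODE vM21 and promoter sequences from RefSeq (GRCm38.p6).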

Additional observations from a re-analysis of the deposited data

Results flagged for a closer look

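Of 54 checks of a named gene or of the well total in a group of 4 or 5 wells, 3 had a well far from the others. Chance gives about 1 in 20, so 3 is near the number that chance alone gives. Prss23, a secreted serine protease, was at 25.1 CPM in the well bC8FAE 4, against 1.98 to 5.12 CPM in the other bC8FAE wells. Lum was at 512 CPM in the well MEF 3, against 117 to 172 CPM in the other MEF wells. The wells bC8FAE 4 and MEF 3 had the lowest totals of the 30, 119295 and 138747 counts, and the part of depth in these values was not tested. Csrp1, a LIM protein of smooth muscle, had its lowest bC6FAE[10] well at 265 CPM, with a group median of 308 and a highest well of 311 CPM. None of the 3 wells belongs to bC6FAE[2] or bCFAE.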

How the results depend on the processing

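For bC6FAE[2] against bCFAE the number of genes called was 599, and it was 476 with DESeq2 (453 shared), 607 with RLE scaling, 614 with well totals alone (514 shared), 558 with no filter on low counts, 502 with a minimum of 30, 734 with only the 2 groups fitted and 756 without the wells MEF 3 and bC8FAE 4. Leaving out 1 of the 6 wells gave 368 to 476. For bC6FAE[10] against bC6FAE[2] it was 29, against 90 with only the 2 groups fitted, 49 without those low wells and 8 to 30 without 1 well. For bC8FAE against bC6FAE[2] it was 128, against 53 with only the 2 groups fitted and 60 to 134 without 1 well. The cause of these differences was not tested. Replicate numbers did not pair the wells: deviations of same-numbered wells correlated at 0.0012, -4e-04 and 0.0235, and with the number as a block the counts were 640, 25 and 144. Of 157 named genes, 100 kept their sign and side of the threshold under every alternative that tested them, and 57 changed under at least 1. Axin2, at 0.05 and not called, was at -0.041 with well totals alone and at -0.32 to 0.35 without 1 well. Srf, at -0.17 and not called, was at -0.34 to 0.081 without 1 well. With 325730 to 726228 counts per well, a gene of 10 CPM rests on few counts in each well, which limits what can be called at low levels.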

Other observations

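Groups outside the lists above were put together after their values were seen, and are given as values only. Imprinted genes are expressed from 1 parental allele, some of them only in some tissues, and allelic expression in these cells was not tested. Of 20 measured members of a list of them, 7 were higher in bC6FAE[2] and 0 lower by edgeR's test, with a median log2 fold change of 0.52. Over all tested genes 5.03% were called higher. Of the 20, 12 lay above 0, and the 13 uncalled members ran from -0.68 to 1.18. The summed level of the list was 5257 to 6933 CPM in bC6FAE[2] wells and 1768 to 2326 CPM in bCFAE wells. Most of that difference lay in H19 and Igf2, with means of 2190 and 2435 CPM in bC6FAE[2] and 247 and 618 CPM in bCFAE wells. Besides H19, Igf2 and Dcn, the growth gene Mest was at 51.5, 129 and 114 CPM in bC6FAE[2] and 16.5, 16.5 and 23.3 CPM in bCFAE wells (2.46 ± 0.35; edgeR adjusted p = 3.07e-07). The cell cycle inhibitor Cdkn1c was at 95.1, 162 and 157 CPM in bC6FAE[2] and 48.1, 55.1 and 41.9 CPM in bCFAE wells (1.54 ± 0.30; edgeR adjusted p = 0.000166). The well bC6FAE[2] 1 was the lowest of its group in both genes. Dlk1, a Notch ligand family member, was lost without bC6FAE[2] 2 (0.72), bCFAE 1 (0.80) or bCFAE 3 (0.73), and Nnat without bC6FAE[2] 1 (0.68).

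Some genes of the cornified envelope, the outer layer of skin cells, were lower. Of 25 members in the table, 10 had no count in the 6 wells. The 4 that passed the filter on low counts were called lower (median -1.85), beside 3.55% called lower over all tested genes. Genes this low can pass the filter through the wells where they are high, so this count is not read as a result about the family. The sum over the 25 was 67.5 to 137 CPM in bC6FAE[2] wells and 434 to 565 CPM in bCFAE wells, most of it Lce1h in bCFAE. Lce1h alone was at 43.6, 39.9 and 33.8 CPM in bC6FAE[2] and 403, 300.2 and 358 CPM in bCFAE wells (-3.06 ± 0.29; edgeR adjusted p = 1.67e-12). The genes called numbered 1 without bC6FAE[2] 3 and 2 without bCFAE 3. The late cornified envelope genes are close copies, and how reads shared between them were counted was not stated. The EGF receptor ligand Hbegf was at 39.6, 31.1 and 21.5 CPM in bC6FAE[2] and 105, 106 and 90.7 CPM in bCFAE wells (-1.58 ± 0.25; edgeR adjusted p = 3.09e-06).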
